A study of Mus musculus with 4 samples.

Results

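Soleus muscles of mdx mice were compared for 8 genes of tendon and the myotendinous junction: Scx, Mkx, Tnmd, Chad, Comp, Cilp2, Thbs4 and Tnc. They are 8 of the 24054 gene symbols in the table of expected counts, found by symbol, and they were chosen with the difference between the groups already known. All 8 passed the filter on low counts, and each had at least 10 counts in every library. The mice, females of the strain C57BL/10ScSn-DMDmdx/J, carry the mdx mutation of dystrophin, as do the controls. Infusions into the femoral vein began at 8 weeks of age and were given monthly until the 12-month endpoint. 2 muscles came from mice given mouse cardiosphere-derived cells (mCDCs), which are cardiac stromal cells grown from the heart of a single wild-type mouse and used at passage 5, and 2 came from mice given the medium alone (vehicle). There was no muscle without the mdx mutation, and the sample labels name skeletal muscle only, with the soleus given in their titles.

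Tendon cells (tenocytes) are fibroblasts that lay down parallel collagen fibrils, and at the myotendinous junction the folded ends of muscle fibers attach to them. Scx and Mkx are transcription factors that direct tendon differentiation, and Tnmd, a membrane glycoprotein, is a marker of mature tenocytes. Comp and Thbs4 are thrombospondins that bind collagen, Chad is a leucine-rich repeat protein that binds collagen and integrin, and Cilp2 is a matrix protein of cartilage and tendon. Tnc is a tenascin of the junction and of healing tissue, and Thbs4 is found both in tendon and in muscle. In these muscles Scx was higher after mCDCs, whereas Tnmd, Chad and Comp were lower.

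On GRCm38, Scx lies at chr15:76457452-76459458, Tnmd at chrX:133850980-133865577, Chad at chr11:94565047-94569127 and Thbs4 at chr13:92751590-92794818. Comp and Cilp2 are both on chromosome 8, at chr8:70373558-70382066 and chr8:69880369-69887687, and Tnc lies at chr4:63959785-64047015. Promoter sequences from RefSeq (GRCm38.p6, 250 bases before to 50 after the start) were matched by symbol for 5 of the 8 genes, Chad, Cilp2, Thbs4, Tnc and Tnmd. Those of Tnmd and Chad are shown because these genes had the largest differences of the 8, and that of Thbs4 because it had the highest level. Capitals mark the E-box CANNTG, the letters bound by basic helix-loop-helix factors such as Scx, searched on both strands.
Chad promoter, chr11:94564797-94565096, plus strand: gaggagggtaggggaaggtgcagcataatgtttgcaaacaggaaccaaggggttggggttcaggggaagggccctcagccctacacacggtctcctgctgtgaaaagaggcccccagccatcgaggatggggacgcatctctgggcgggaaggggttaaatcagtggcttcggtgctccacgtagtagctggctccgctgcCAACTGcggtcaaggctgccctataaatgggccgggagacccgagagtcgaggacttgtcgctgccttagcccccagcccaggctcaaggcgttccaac
Thbs4 promoter, chr13:92794769-92795068, minus strand: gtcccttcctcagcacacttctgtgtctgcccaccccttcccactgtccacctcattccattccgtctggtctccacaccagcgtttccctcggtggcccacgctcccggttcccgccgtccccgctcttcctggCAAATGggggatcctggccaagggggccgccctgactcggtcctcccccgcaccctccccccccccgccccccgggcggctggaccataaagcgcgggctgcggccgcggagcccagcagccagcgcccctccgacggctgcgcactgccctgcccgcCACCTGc
Tnmd promoter, chrX:133850758-133851057, plus strand: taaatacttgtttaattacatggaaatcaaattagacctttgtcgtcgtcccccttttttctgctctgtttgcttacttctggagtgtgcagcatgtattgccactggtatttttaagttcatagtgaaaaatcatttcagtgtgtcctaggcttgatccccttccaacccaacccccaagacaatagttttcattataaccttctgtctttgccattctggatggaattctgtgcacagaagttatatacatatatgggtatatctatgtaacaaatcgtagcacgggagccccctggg
An E-box was found in the windows of 4 of the 5 genes and was not in that of Tnmd, and 72.3% of all 32851 promoter windows of this length held one. The EGR motif GCGGGGGCG was found in the windows of Cilp2 and Tnc and in 2.91% of all windows. The TEAD motif GGAATG was found for Thbs4 and in 14.7% of all windows, and the SMAD motif GTCTG for Cilp2, Thbs4 and Tnc and in 49.6%. The AP-1 motif TGANTCA was in none of the 5 and in 7.81% of all windows. All motifs were searched on both strands, and in these windows none overlapped an E-box.

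Library totals lay between 22481391 and 27187425 expected counts. In what follows, values are CPM, read counts relative to the scaled library size, and a pair of values gives replicate 1 and then replicate 2. A gene is called where its fold change exceeds 1.5 and its unadjusted p is below 0.05 in edgeR's quasi-likelihood F-test, which covered 13652 genes and called 172 of them higher and 374 lower after mCDCs. No gene had a Benjamini-Hochberg adjusted p under 0.05 (smallest 0.200 with edgeR's quasi-likelihood test), 947 had an unadjusted p under 0.05, and adjusted p was under 0.05 for 48 genes with DESeq2, 66 with edgeR's likelihood ratio test and 58 with its exact test. An exact permutation test on 2 muscles against 2 cannot reach a two-sided p below 0.333. The called genes that were higher made up 31.5% of calls, 19.2% with libraries scaled by size alone and 43.4% with a trend on transcript length and GC content removed. The p-values rest on the spread between 2 animals in each group, with the spread of each gene drawn towards a trend over all genes.

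Among the 8 tendon and junction genes, 1 was called higher (Scx) and 3 lower (Tnmd, Chad and Comp), beside 1.26% of all genes tested that were called higher and 2.74% that were called lower. Since the genes were chosen on this contrast, the count is a description, no p is given for any of the 8, and nothing is read from it. The 4 libraries did not overlap between groups for 6 of the 8 genes: 5 were lower in both mCDC muscles than in both vehicle muscles (Tnmd, Mkx, Thbs4, Comp and Chad), Scx was higher in both, and Cilp2 and Tnc overlapped. Of all genes tested, 19.5% did not overlap and were lower in mCDC muscles, and 19.2% did not overlap and were higher. The median log2 fold change of the 8 was -0.59, and that of all genes tested was -0.0094. In bulk muscle, fewer cells of a type and less RNA per cell cannot be told apart.

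**Figure D1:**
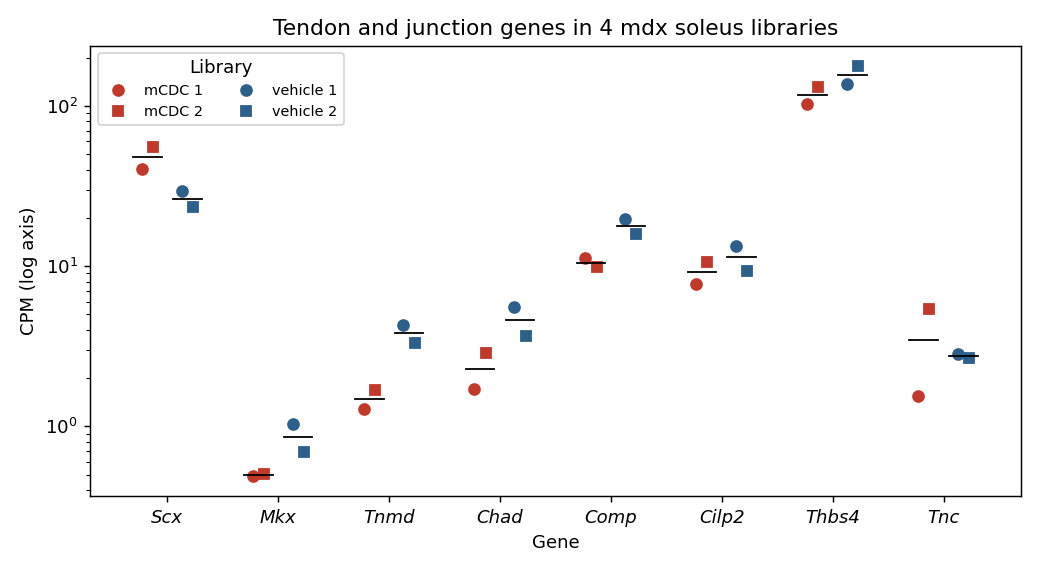
CPM (log axis) of the 8 genes in each library; red is mCDC, blue is vehicle, circles are replicate 1, squares are replicate 2, and the black bar is the mean of a group (n = 2). Scx stands at 40.4 and 55.1 after mCDCs, against 29.2 and 23.4 after vehicle, and Tnmd at 1.29 and 1.69 against 4.31 and 3.31.

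Scx, the basic helix-loop-helix factor that marks tendon progenitors, had 40.4 and 55.1 CPM in the mCDC muscles, against 29.2 and 23.4 in the vehicle muscles. Both mCDC libraries were above both vehicle libraries. The means were 47.8 ± 10.4 CPM (SD, n = 2) and 26.3 ± 4.15 (SD, n = 2), a log2 fold change of 0.86 (standard error 0.20). With each library left out in turn it lay between 0.62 and 1.07, and Scx was called each time. Scx lies within Bop1, a ribosome biogenesis gene on the opposite strand, and the 2 genes share no exon base in the GENCODE annotation. The labels name a stranded library kit and the methods another kit, and whether RSEM used strand is not given in the sources used here, so reads from the unspliced Bop1 transcript and from Scx cannot be told apart. Bop1 had 44.5 and 48.1 CPM in the mCDC muscles, against 37.5 and 31.5 in the vehicle muscles, and the log2 fold change was 0.42 (standard error 0.15), so Bop1 was not called. There were 0.908 and 1.15 Scx reads per Bop1 read in the mCDC muscles, against 0.780 and 0.740 in the vehicle muscles. This ratio carries the difference of Scx itself and is a description. The part of Bop1 in the Scx counts was not tested.

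Mkx, the homeobox factor that promotes collagen fibril growth in tendon, was the weakest of the 8. It had 13 and 11 counts in the mCDC muscles, against 27 and 19 in the vehicle muscles. In CPM these were 0.492 and 0.502 against 1.03 and 0.691. The vehicle libraries were higher and the log2 fold change was -0.78, with a standard error of 0.46. It was not called with all libraries or with any of the 4 left out, where the value ran from -1.05 without vehicle replicate 2 to -0.47 without vehicle replicate 1.

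Tnmd, the tenocyte membrane protein, had 1.29 and 1.69 CPM in the mCDC muscles, against 4.31 and 3.31 in the vehicle muscles. The gap between the groups exceeded the spread within either. This was the largest difference of the 8, and the log2 fold change was -1.36 (standard error 0.30), or 2.57-fold lower, from 34 and 37 counts against 113 and 91. Leaving out each library in turn gave values between -1.56 and -1.15, and Tnmd was called each time.

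Chad had 1.70 and 2.88 CPM in the mCDC muscles, against 5.57 and 3.67 in the vehicle muscles. Both mCDC muscles were lower, and the spread within each group was wider than for Tnmd. The log2 fold change was -1.02 (standard error 0.34). It was -0.68 without mCDC replicate 1 and -0.69 without vehicle replicate 1, where Chad was not called. Chad lies within Acsf2, a mitochondrial acyl-CoA synthetase gene on the opposite strand, which shares no exon base with it. Acsf2 had 20.5 and 15.9 CPM in the mCDC muscles, against 14.8 and 12.8 in the vehicle muscles, higher in both mCDC muscles. As for Scx, reads from the unspliced transcript of the other strand cannot be told apart, and the part of Acsf2 in the Chad counts was not tested.

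Comp had 11.2 and 9.82 CPM in the mCDC muscles, against 19.7 and 15.8 in the vehicle muscles. The groups did not overlap. The means were 10.5 ± 0.955 CPM (SD, n = 2) and 17.8 ± 2.78 (SD, n = 2), and the log2 fold change was -0.76 (standard error 0.19). Without vehicle replicate 1 the value was -0.58 and Comp was not called.

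Thbs4, the thrombospondin with the most reads of the 8, had 102 and 130 CPM in the mCDC muscles, against 137 and 176 in the vehicle muscles. The higher mCDC library and the lower vehicle library lay close together. The log2 fold change was -0.43 (standard error 0.18), short of 1.5-fold. It passed the thresholds without mCDC replicate 2, at -0.61, and without vehicle replicate 1, at -0.60, and was -0.26 without mCDC replicate 1 and -0.24 without vehicle replicate 2.

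Cilp2 had 7.73 and 10.6 CPM in the mCDC muscles, against 13.4 and 9.35 in the vehicle muscles, which overlapped. Its log2 fold change was -0.32 (standard error 0.25), and it was -0.028 without vehicle replicate 1. Tnc had 1.55 and 5.39 CPM in the mCDC muscles, against 2.82 and 2.66 in the vehicle muscles. The mCDC muscles lay on either side of the vehicle muscles, 3.47-fold apart from each other, and the log2 fold change of 0.32 (standard error 0.50) became -0.82 without mCDC replicate 2 and 0.98 without mCDC replicate 1, where Tnc was called higher. An antisense noncoding gene that shares 176 of the 7772 exon bases of Tnc is not listed in the table.

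**Figure D2:**
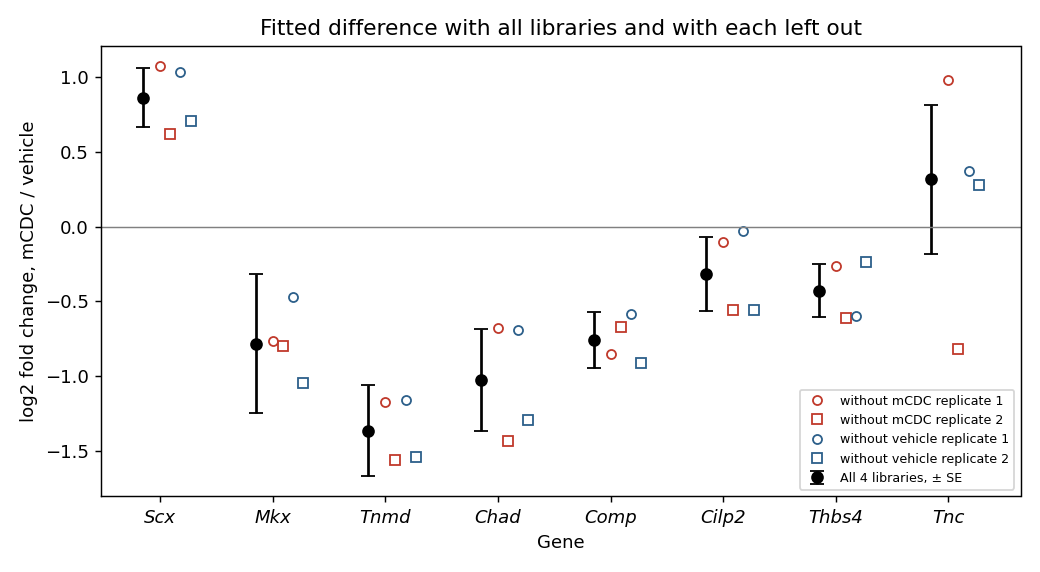
Log2 fold change of mCDC over vehicle for the 8 genes; black points and bars are the fit with all 4 libraries and its standard error, and open symbols are fits with the named library left out. The sign is the same in each fit for 7 of the 8 genes, and Tnc runs from -0.82 to 0.98.

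The 8 genes did not share one pattern over the libraries. The highest value was in vehicle replicate 1 for 5 of them (Tnmd, Mkx, Comp, Cilp2 and Chad), in vehicle replicate 2 for Thbs4, and in mCDC replicate 2 for Scx and Tnc. The lowest value was in mCDC replicate 1 for 6 of them, all but Scx and Comp. In centred log2 CPM the mean of the 8 was -0.47 and 0.025 in the mCDC muscles, against 0.37 and 0.073 in the vehicle muscles, so mCDC replicate 2 and vehicle replicate 2 were close.

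Levels were compared between genes per kilobase of the longest protein-coding transcript in GENCODE. Over the 4 libraries Thbs4 had a mean of 42.6 CPM per kilobase and Scx 35.8, followed by Comp at 5.85, Cilp2 at 2.38, Chad at 2.06, Tnmd at 1.96, Tnc at 0.437 and Mkx at 0.186. The ranges over the 4 libraries overlapped between Thbs4 and Scx, between Cilp2 and Chad, between Chad and Tnmd and between Tnc and Mkx. They did not overlap between Scx and Comp, Comp and Cilp2, or Tnmd and Tnc. The 2 leading genes stood in opposite order in the groups. Scx had 46.1 ± 10.1 CPM per kilobase (SD, n = 2) and Thbs4 36.3 ± 6.19 (SD, n = 2) in mCDC muscles, where their ranges were 39.0 to 53.3 and 32.0 to 40.7. In vehicle muscles Scx had 25.4 ± 4.01 (SD, n = 2) and Thbs4 48.9 ± 8.70 (SD, n = 2).

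The reads of Scx were also set against those of each other gene in the same library, a ratio that does not depend on how libraries are scaled and that was chosen after the values had been seen. Each ratio carries the difference of Scx itself, so it restates the values that chose the genes and is a description. There were 31.4 and 32.6 Scx reads per Tnmd read in the mCDC muscles, against 6.78 and 7.05 in the vehicle muscles. The replicates lay within a narrow band and the groups were 4.62-fold apart. For Chad the ratios were 23.7 and 19.2 against 5.25 and 6.36, and for Comp 3.61 and 5.61 against 1.48 and 1.48. For Cilp2, whose own CPM overlapped, the ratios were 5.23 and 5.20 against 2.18 and 2.50. Tnc was the one whose groups came closest, at 26.0 and 10.2 against 10.4 and 8.79, and these overlapped.

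The 8 genes were also divided by the summed CPM of the 12 tendon collagens in the same library, a scaling added after seeing the data. Per 1000 collagen reads, Scx had 121 and 193 reads in the mCDC muscles, against 91.9 and 47.3 in the vehicle muscles. Tnmd had 3.87 and 5.92 against 13.6 and 6.71. These were the genes of the 8 whose groups did not overlap on this scale, with Scx higher and Tnmd lower in mCDC muscles. Comp had 33.6 and 34.4 against 62.1 and 32.0, so that vehicle replicate 2, the library with the most collagen reads, fell below both mCDC libraries. The median log2 difference of the 8 on this scale was -0.23.

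**Figure D3:**
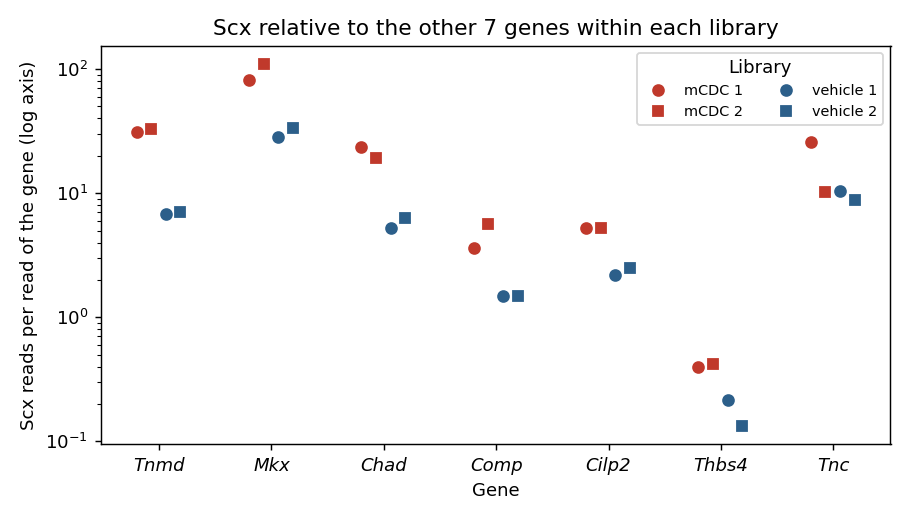
Scx reads per read of each of the other 7 genes within a library, on a log axis, with red for mCDC, blue for vehicle, circles for replicate 1 and squares for replicate 2. The mCDC libraries lie above the vehicle libraries for every gene but Tnc, with 31.4 and 32.6 against 6.78 and 7.05 for Tnmd.

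The closest family members of the 8 were measured on a list of 14 genes, of which 9 were tested. None was called with edgeR or with DESeq2, and 0 of the 9 had an unadjusted p under 0.05. Without the filter on low counts 1 was called higher, Tnr, at 3 and 6 counts against 1 and 1. With libraries left out, 3 were called lower without mCDC replicate 1 and 2 without vehicle replicate 1. Among thrombospondins, Thbs1, Thbs2 and Thbs3 had log2 fold changes of 0.0025, 0.029 and -0.27. Cilp, the relative of Cilp2, had 80.0 and 67.2 CPM in the mCDC muscles, against 77.6 and 89.6 in the vehicle muscles, with a log2 fold change of -0.18. The tenascin Tnxb had one of -0.54, and its highest value was 62.1 CPM in vehicle replicate 2. Chadl, a relative of Chad, had one of -0.33, and Tcf15, a relative of Scx, one of -0.64. The homeobox genes Irx3 and Irx5 had values of 0.27 and -0.23. Tnr, Tnn, Irx1, Irx2 and the relative of Tnmd listed as Lect1 were too low to be tested.

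Other genes of tendon and its junction with muscle were counted on lists of regulators, collagens, other matrix and the muscle side of the junction, which with the family members hold 98 genes. Of these, 87 were tested, with 4 called higher (4.6%) and 9 lower (10.3%), beside 1.26% and 2.74% of all genes. Earlier results for matrix genes of these libraries were known when the lists were written. Their median log2 fold change was -0.20 and was -0.086 without vehicle replicate 2. Of the 13 called, 4 were called with each library left out in turn: Ptch1, Col24a1, Ankrd2 and Xirp1.

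Among regulators, collagens and other matrix, no gene was called higher with edgeR or DESeq2, and 0 were higher at an unadjusted p under 0.05. With a library left out, up to 2 regulators and 2 genes of the other matrix were called higher, and with the replicate number as a block 2 regulators were. Of 17 tested regulators, 10 had log2 fold changes above 0 and 7 below, and 1 was called lower. Their median was 0.10 and lay between -0.16 and 0.13 with a library left out. Ptch1, the hedgehog receptor, fell to 0.985 and 0.914 CPM in the mCDC muscles from 2.59 and 2.15 in the vehicle muscles, and the log2 fold change was -1.31 (standard error 0.32, edgeR adjusted p = 0.571). Tgfb3, a ligand that maintains tenocytes, had a log2 fold change of -0.11 and was not called. Egr1, an early response factor that also acts in tendon, had 37.8 and 122 CPM in the mCDC muscles, against 25.3 and 73.3 in the vehicle muscles, which overlapped.

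All 12 tendon collagens were tested, all had log2 fold changes below 0 and 3 were called lower, and 5 without vehicle replicate 1. With a library left out the median of the list lay between -0.62 and -0.18. Col24a1, a fibrillar collagen, had 3.48 and 4.29 CPM in the mCDC muscles, against 6.75 and 10.8 in the vehicle muscles, and the log2 fold change was -1.18 (standard error 0.28, edgeR adjusted p = 0.567). Col12a1, which coats collagen fibrils, had -0.74 and was not called without mCDC replicate 1 or vehicle replicate 1. Col1a2, a chain of the main tendon collagen, had -0.61 and was not called without mCDC replicate 2, at -0.54, or without vehicle replicate 2, at -0.31. With a trend on length and GC content taken out, Col12a1 had -0.53 and Col1a2 -0.51, and neither was called. Col1a1 and Col3a1, with -0.32 and -0.35, were not called.

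Of 25 tested genes of the other tendon matrix, 5 were called lower, and 9 with libraries scaled by size alone. Fmod, a small proteoglycan abundant in tendon, had 10.3 and 20.8 CPM in the mCDC muscles, against 36.1 and 24.7 in the vehicle muscles, and the log2 fold change was -0.97 (standard error 0.32, edgeR adjusted p = 0.673). Angptl7, an angiopoietin-like protein, had 1.14 and 4.2 CPM against 7.90 and 5.31, with a log2 fold change of -1.34. Like Chad, both genes were lowest in mCDC replicate 1 and highest in vehicle replicate 1, and neither was called when either of those libraries was left out, at -0.54 and -0.66 for Fmod and -0.65 and -1.01 for Angptl7. Lum, another small proteoglycan, had 264 and 251 counts against 389 and 786, and its log2 fold change of -1.02 became -0.47, not called, without vehicle replicate 2. Matn2 had -0.94 and was called in 1 of the 4 fits with a library left out, that without vehicle replicate 1, and not with DESeq2. Matn4 was called on few reads, 3 and 4 counts against 26 and 11, and was not called without mCDC replicate 1 or vehicle replicate 1. Dcn, Sparc and Bgn, the most abundant of the list, had -0.54, -0.26 and -0.50 and were not called.

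On the list for the muscle side of the junction, 24 genes were tested, with 4 called higher and 0 lower. At an unadjusted p under 0.05 in edgeR's quasi-likelihood test 2 were lower, and 1 was called lower with DESeq2. Of the 24, 12 had log2 fold changes above 0 and 12 below, with a median of 0.0088. Whole muscle was sequenced, so these values are not specific to the junction. Ankrd2, a stretch-responsive ankyrin repeat protein, rose to 1995 and 3224 CPM in the mCDC muscles from 1247 and 1389 in the vehicle muscles, and the log2 fold change was 0.99 (standard error 0.24, edgeR adjusted p = 0.567), and 0.60 without mCDC replicate 2. Xirp1, an actin-binding protein of fiber ends, had 1118 and 2266 CPM against 814 and 557, and the log2 fold change was 1.30 (standard error 0.33, edgeR adjusted p = 0.571), which was 0.71 without mCDC replicate 2. Csrp3, a LIM protein of the Z-disc, and Ankrd1, another ankyrin repeat protein, had 763 and 2045 CPM against 658 and 741, and 118 and 256 against 118 and 110. Without mCDC replicate 2 their log2 fold changes were 0.13 and 0.057, and of the fits with a library left out only that without mCDC replicate 1 called them. Neither was called with DESeq2 or with libraries scaled by size alone, and Ankrd1 was not called with the replicate block, at 0.62. The abundant Des, Nrap and Xirp2 had 0.15, 0.042 and -0.077.

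**Figure D4:**
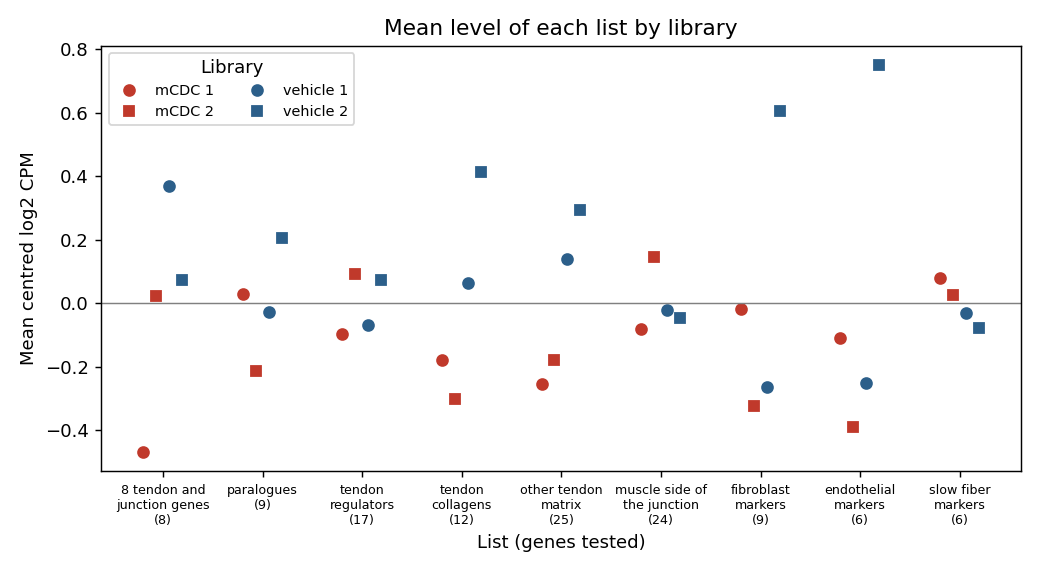
Mean over the tested genes of a list of log2 CPM, centred on each gene's mean, by library; red is mCDC, blue is vehicle, circles are replicate 1 and squares replicate 2, and the number of genes tested stands in brackets. The 8 tendon and junction genes were highest in vehicle replicate 1 at 0.37, whereas the collagens, fibroblast markers and endothelial markers were highest in vehicle replicate 2 at 0.41, 0.60 and 0.75.

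Markers of other cells were read from the same libraries. The 9 fibroblast markers summed to 491 and 376 CPM after mCDCs, against 464 and 726 after vehicle, with Pdgfra and Smoc2 called lower. Most of that sum was Gsn, at 337 and 243 CPM against 334 and 482. The 6 endothelial markers summed to 125 and 99.1 CPM against 109 and 226, with Vwf called lower, and 2 called lower with DESeq2. Vehicle replicate 2 was the highest library on both lists, as it was for Thbs4, while Tnmd, Chad, Comp, Cilp2 and Mkx were highest in vehicle replicate 1. The part of these cells in the differences was not tested. The 11 cartilage markers summed to between 1.37 and 2.26 CPM in a library, with Matn1 at 0 in all, and the 6 bone markers to between 1.78 and 3.06. The 4 markers of tendon sheath and synovium summed to 418 and 479 CPM against 416 and 325, and none was called. Most of that sum was Clic5, at 250 and 331 CPM against 267 and 185, which overlapped. Prg4 had 18.6 and 31.8 CPM against 16.1 and 24.0. The 6 macrophage markers summed to between 18.1 and 28.4 CPM, with Csf1r called lower and Cd68, which overlapped between groups, called higher, neither of them with DESeq2. Markers of slow and oxidative fibers, the main fibers of the soleus, summed to between 72280 and 82061 CPM and none was called. They here include Myh2, the myosin of fast oxidative fibers. Of the 6, 4 were higher in both mCDC muscles than in both vehicle muscles, and 0 were lower in both. Of all genes tested, 19.2% did not overlap and were higher, and 19.5% did not overlap and were lower. Fast fiber markers summed to between 11661 and 18039 CPM, and adipocyte and Schwann cell markers to between 149 and 217 and between 62.5 and 85.9, with none called. Fast myosins varied widely within both groups, with Myh4 at 2096 and 47.5 CPM after mCDCs against 163 and 411, and Myh1 at 4162 and 603 against 4490 and 1661. Myh4 was highest in mCDC replicate 1, where 6 of the 8 tendon and junction genes were lowest, and Myh1 in vehicle replicate 1, where 5 of the 8 were highest. The adipocyte sum was mostly Fabp4, at 115 and 114 CPM against 124 and 200. Fabp4 was highest in vehicle replicate 2, where the endothelial sum was also highest. The other 5 adipocyte markers were highest in vehicle replicate 1, and lowest in vehicle replicate 2, with Plin1 at 5.11 and 0.728 CPM and Lep at 2.56 and 0.327. The part of these fibers and cells in the differences was not tested. The lists without a called gene had 0 with DESeq2 as well, and a single gene at an unadjusted p under 0.05, Fabp4 on the adipocyte list.

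The genes whose pattern over the 4 libraries was nearest to the mean of the 8 were Gm20743, Cdca3, S100pbp, Fancm, Eml5, Matk, Pde1a, Exd1, Socs2 and Wdfy2. Their distances, as the Euclidean distance between centred log2 CPM values over 4 libraries, lay between 0.045 and 0.11. The median of the 13644 genes searched was 0.71. Several were low, such as Wdfy2 at 0.417 and 0.594 CPM against 0.839 and 0.691. The mean of the 8 joins genes that differ in direction, and whether such small distances exceed counting noise was not tested. None of the 10 is on the lists of tendon or junction genes, and Socs2, an inhibitor of cytokine signaling, had 5.68 and 7.26 CPM in the mCDC muscles, against 9.77 and 7.68 in the vehicle muscles.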

How the data were processed

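Total RNA of 4 soleus muscles was sequenced as single-end reads. The authors aligned them with Bowtie 2 to UCSC transcripts (version 2.1.0 in the submitters' processing notes, build mm10) and deposited RSEM (version 1.2.15) expected counts per gene symbol, without scaling. Reads matching several transcripts are split by RSEM, so near-identical genes share reads. The strand setting is not given in the sources used here.

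After rounding, edgeR 4.0.16 (R 4.3.3) was run over all genes: filterByExpr (minimum count 10), trimmed mean of M-values (TMM), and the quasi-likelihood F-test (legacy = FALSE), with the thresholds of the study's methods, 1.5-fold and p under 0.05. CPM uses the scaled library size, and log2 CPM a prior count of 2. Standard errors are the log2 fold change over the square root of F. The fit was checked on simulated counts in which 200 genes were changed. DESeq2 1.42.0 and other settings were alternatives.

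The genes and lists were chosen with earlier results of these data known. Named were the 8 genes, all family members, of each other list the called genes (8 with the smallest p at most) and the 3 with the highest mean CPM, and the 10 genes nearest in pattern. A gene named by this rule is not reported here. Groups and replicate numbers came from the sample titles. Positions and transcript lengths came from GENCODE annotation of GRCm38, the same assembly as mm10. Of 24054 symbols, 22750 were paired by their own name, 933 by a synonym, and 371 had no match. Motif windows are a description of letters. Muscle function, histology and antibody data were not used here.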

Additional observations from a re-analysis of the deposited data

How the results depend on the processing

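Scx, Tnmd, Comp and Chad were the members called in each of the 10 alternatives that left out no library, and the median of all 8 members lay between -0.67 and -0.57 there, with a prior count of 0.5 included. Scaled to the tendon collagens, which was chosen after seeing the data, the median was -0.23 and Cilp2 stood at 0.053 in place of -0.32. With each library left out, the members' median ran from -0.73 to -0.47, those called lower from 2 to 4 and those called higher from 1 to 2, and Tnc ran from -0.82 without mCDC replicate 2 to 0.98 without mCDC replicate 1. Over all genes, those called higher ran from 112 to 397 and those called lower from 236 to 834. For the other tendon and junction genes, those called higher ran from 2 to 9 and those called lower from 8 to 17, and the median from -0.27 to -0.086. That median was -0.28 with libraries scaled by size alone and -0.11 after removal of a length and GC trend. Of those genes, 2 were called higher with DESeq2 and 2 with libraries scaled by size alone. The cause of these changes was not tested. With a library left out, the lone library of a group is assumed to vary like the other group. With the replicate number as a block, 172 genes were called higher and 308 lower, and the members' median was -0.59. Same-numbered libraries did not deviate together (correlation -0.039 over 13652 genes, which are not independent), and the titles give no pairing. Depth limits Mkx, Tnmd, Tnc and Chad most, with 11 to 146 counts in a library. No group was large enough to test for an outlying library.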
